A study of Homo sapiens with 12 samples.

Results

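The kinesin genes encode the motor proteins that walk along microtubules and the light chains that bind cargo to one class of these motors. They were taken from the count tables by symbol, as every KIF gene with a number and an optional letter A to C, the genes KIFC1 to KIFC3, and the light-chain genes KLC1 to KLC4. This gave 46 of 55765 gene symbols, sorted by their best-known role into 14 mitotic kinesins, 21 transport kinesins (4 of them light chains) and 11 other kinesins.

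A kinesin motor domain splits ATP to step along a microtubule, mostly away from the cell centre. Mitotic kinesins build and move the spindle, align and separate chromosomes and complete cell division, and they are made mainly in dividing cells. Transport kinesins carry synaptic vesicle precursors, mitochondria, lysosomes and other cargo along axons and dendrites, and so serve neurons that have stopped dividing.

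RNA was measured in SH-SY5Y, a human neuroblastoma line derived from the bone-marrow line SK-N-SH, whose cells slow their division and extend neurites when given all-trans retinoic acid (ATRA). All 12 libraries came from cells that received 10 μM ATRA for 7 days, in 2 experiments of 3 control and 3 treated libraries each. In the co-treatment experiment the treated cells received hydrogen peroxide (H2O2) together with ATRA throughout, and in the pre-treatment experiment they received it 72 h before ATRA was started, while both control groups received ATRA alone. The H2O2 dose is 10 mM in the deposited description and 10 μM in the study's methods. No library was made from cells without ATRA, and the line is a tumour line and not a primary neuron. The question was whether the kinesin genes respond to oxidative stress during or before neuronal differentiation, and whether mitotic and transport kinesins do so alike.

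Each library held 27576276 to 98287391 reads on genes, of which the kinesin genes took 0.322% to 0.534%. Pre-treatment control replicate 3 stood apart from the other 2 controls of its group. It had 0.20 reads outside annotated genes for each read on a gene, against 0.80 and 0.83 in control replicates 1 and 2 and 0.34 to 0.46 in the treated libraries. Small structured RNAs took 17.6% of its reads on genes, against 1.59% and 2.88% in control replicates 1 and 2 and 13.3% to 15.1% in the treated libraries. The co-treatment libraries lay between, with 0.26 to 0.43 reads outside genes per read on a gene and 5.04% to 13.03% small structured RNAs. Control replicate 3 and control replicates 1 and 2 were thus at opposite ends of all 12 libraries, and which of them is unusual was not tested. The fold changes of the pre-treatment experiment are therefore given with all 6 libraries and without control replicate 3. Of 12 neuroblast markers, 11 exceeded 1 CPM (a gene's counts scaled to a fixed library total) in each group, TH being the exception, and their summed CPM was 4164 to 6008 in the controls and 4146 to 5178 in the treated libraries. The 12 markers of the mesenchymal cells that such cultures can hold summed to 251 to 380 CPM in the controls and 325 to 454 CPM in the treated libraries, with PRRX1, ANXA1 and COL1A2 near 0 throughout. Of the mesenchymal markers that could be tested, 1 of 9 (11.1%) was called under co-treatment, 2 of 9 (22.2%) under pre-treatment and 6 of 10 (60.0%) under pre-treatment without control replicate 3. Of all genes, 0.598%, 0.0242% and 26.1% were called in these 3 comparisons. In the last comparison 6 of 11 neuroblast markers (54.5%) were called too, against 26.1% of all genes, and the part of such cells in the results below was not tested.

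Levels are given below as CPM scaled by TMM factors within each experiment, always in the order of replicates 1, 2 and 3. A gene was called when the Benjamini-Hochberg adjusted p (FDR) of edgeR's quasi-likelihood test, taken over all genes tested, was below 0.05, and log2FC is the treated over the control level on the log2 scale.

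Of the 46 genes, 42 passed the filter on low counts in every comparison, namely 12 mitotic, 21 transport and 9 other kinesins. Per kilobase of exon and averaged over the 12 libraries, the highest levels were those of KIF5B, a conventional kinesin heavy chain, with 65.4 CPM per kb (56.8 to 72.9), and KIF21A, a kinesin of developing axons, with 59.6 CPM per kb (53.00 to 74.9). The ranges of these 2 genes over the libraries overlapped. The highest mitotic kinesins were KIF2C, which removes tubulin at kinetochores, with 16.8 CPM per kb (8.51 to 22.4), and KIF20A, which acts in cytokinesis, with 15.9 CPM per kb (8.25 to 21.7), and their ranges overlapped too. Among the other kinesins, KIF26A and KIF26B led with 21.8 CPM per kb (12.1 to 31.6) and 18.2 CPM per kb (8.46 to 39.5); both belong to a family whose motor domain is thought not to drive movement. The summed CPM of mitotic kinesins was 10.8% to 19.4% of that of all kinesins. Unlike the levels per kilobase, this share was not scaled by gene length. In bulk RNA fewer dividing cells and less RNA per cell cannot be told apart.

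The 4 genes that did not pass the filter were KIF2B, KIFC1, KIF12 and KIF19. KIF2B, an intronless gene known from testis, was listed at 0 in all 12 libraries, while KIF12 and KIF19 had 35 and 21 reads in all. KIFC1, a minus-end-directed spindle motor of dividing cells at chr6:33359600-33377673 on hg19, had 34 reads over the 12 libraries. Many of its neighbours on the same stretch of chromosome 6 were as low or lower: RPS18, a ribosomal protein gene used by every cell, was listed at 0 in all 12 libraries, PFDN6 and RGL2 were as well, while DAXX, CUTA and RXRB had 119, 319 and 592 reads in total. The count of KIFC1 was therefore not read as a measure of its expression. KIF4B, an intronless copy of KIF4A, stood at 0.404 to 1.62 CPM, and its reads may belong in part to KIF4A.

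**Figure D1:**
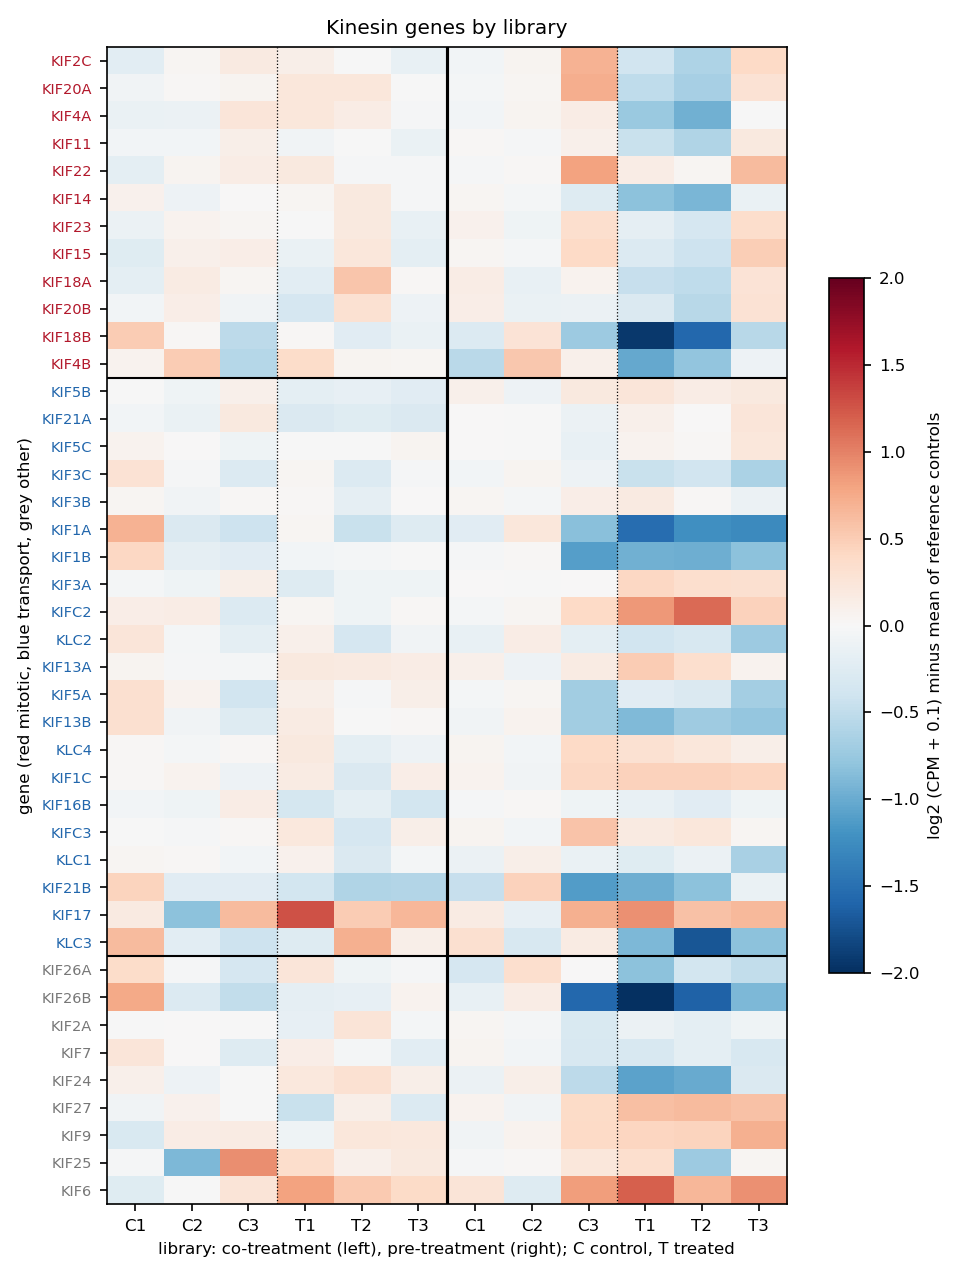
Level of the 42 kinesin genes that passed the filter in each of the 12 libraries, as log2 of CPM plus 0.1 minus its mean over the reference controls (all 3 for co-treatment, replicates 1 and 2 for pre-treatment). Rows are genes by class and level per kilobase, C and T are control and treated libraries; the mitotic block is blue in pre-treatment T1 and T2 but not in T3, and KIF1A, KIF1B and KIF26B are blue in pre-treatment control 3 as well as in the treated libraries.

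When H2O2 was given together with ATRA, no kinesin gene was called. The background in this comparison was 0.598% of all 22089 genes tested (132 genes). DESeq2, limma-voom and edgeR's exact test called none either. Unadjusted p-values lay below 0.05 for 2 of the 42 kinesin genes (4.76%) and 8.15% of all genes, and the median log2FC was 0.03 over mitotic, -0.05 over transport and 0.03 over other kinesins, against 0.00 over all genes tested. The 2 genes were KIF21B and KIF16B. KIF21B, a neuronal kinesin that also regulates microtubule growth, stood at 6.33, 3.96 and 3.96 CPM in the control libraries and 3.58, 3.03 and 3.07 CPM in the treated libraries. Every treated library lay below every control (log2FC = -0.57 ± 0.24 (SE), FDR = 0.547). KIF16B, a motor of early endosomes, had 26.6, 25.9 and 30.4 CPM in the control libraries and 21.6, 23.9 and 21.4 CPM in the treated libraries. Its groups did not overlap either, the treated libraries being lower (log2FC = -0.31 ± 0.13 (SE), FDR = 0.548).

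The next smallest p-values among transport kinesins in this experiment belonged to KIF21A and KIF17. KIF21A stood at 635, 601 and 757 CPM in the control libraries and 543, 561 and 540.4 CPM in the treated libraries, again with all treated libraries below the controls (log2FC = -0.28 ± 0.13 (SE), FDR = 0.633). KIF17, a kinesin of dendrites, was at the low end of detection with 1.11, 0.506 and 1.56 CPM in the control libraries and 2.49, 1.43 and 1.60 CPM in the treated libraries (log2FC = 0.79 ± 0.40 (SE), FDR = 0.674). The groups of KIF17 overlapped.

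No mitotic kinesin had an unadjusted p below 0.05 under co-treatment. The 4 with the smallest p-values were KIF20A, KIF18A, KIF18B and KIF4A. KIF20A had 62.8, 66.9 and 68.7 CPM in the control libraries and 77.5, 77.04 and 65.8 CPM in the treated libraries (log2FC = 0.15 ± 0.12 (SE), FDR = 0.840). KIF18A, which limits the movements of chromosomes at the spindle equator, had 24.1, 31.04 and 28.3 CPM in the control libraries and 23.9, 40.6 and 28.1 CPM in the treated libraries (log2FC = 0.15 ± 0.19 (SE), FDR = 0.909). KIF18B, which shortens astral microtubules, had 33.2, 23.9 and 16.3 CPM in the control libraries and 23.9, 20.04 and 21.4 CPM in the treated libraries (log2FC = -0.17 ± 0.21 (SE), FDR = 0.911). The groups overlapped in each of these genes, and also in KIF4A, a chromosome-bound motor that organises the central spindle, with 72.2, 72.8 and 92.8 CPM in the control libraries and 92.1, 87.1 and 77.2 CPM in the treated libraries (log2FC = 0.11 ± 0.14 (SE), FDR = 0.913). The log2FC of mitotic kinesins ranged from -0.17 to 0.15.

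Other kinesins with the smallest p-values in this experiment were KIF6, KIF24, KIF27 and KIF26B. KIF6, a little-studied kinesin, stood at 0.526, 0.633 and 0.780 CPM in the control libraries and 1.19, 0.961 and 0.868 CPM in the treated libraries, each treated library above each control (log2FC = 0.64 ± 0.36 (SE), FDR = 0.738). KIF24, which keeps centrioles from forming cilia, had 28.8, 24.9 and 26.7 CPM in the control libraries and 31.02, 32.9 and 28.9 CPM in the treated libraries, and its treated libraries were also all above the controls (log2FC = 0.21 ± 0.12 (SE), FDR = 0.756). KIF27, related to the Hedgehog pathway kinesin KIF7, had 13.3, 14.9 and 13.96 CPM in the control libraries and 10.3, 15.2 and 11.7 CPM in the treated libraries (log2FC = -0.18 ± 0.17 (SE), FDR = 0.869). The groups of KIF27 overlapped. KIF26B stood at 386, 189.95 and 163 CPM in the control libraries and 203, 204 and 241 CPM in the treated libraries, with control replicate 1 above the 5 other libraries (log2FC = -0.19 ± 0.26 (SE), FDR = 0.923).

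When H2O2 was given before ATRA and all 6 libraries were compared, no kinesin gene was called, against a background of 0.0242% (6 of 24743 genes tested). At an unadjusted p below 0.05 there were 10 of the 42 kinesin genes (23.8%) and 11.2% of all genes. With edgeR's exact test 1 kinesin gene, KIF1A, was called, the same gene was the 1 called with DESeq2, and limma-voom called 0. Without control replicate 3, 11 of the 42 kinesin genes were called, which is 26.2% against a background of 26.1% (6872 of 26350 genes tested). The share of kinesin genes called was thus that of all genes. Of the 11, 5 were higher and 6 lower in the treated libraries, where 13.2% of all genes were called higher and 12.8% lower. This split depended on the scaling: 2 were higher and 10 lower with upper-quartile factors, and 1 was higher and 13 lower with library size alone, settings that moved the median log2FC of all genes to -0.10 and -0.21. KIF3A, KIF1C and KIF9 were not called with either of these, nor KIF27 with library size alone. The 11 were 1 mitotic kinesin, 7 transport kinesins and 3 other kinesins. When 1 more library was left out in turn, KIF1A, KIF1B and KIF13B were called in 5 of 5 fits, KIF26B in 4, KIFC2 in 3, KIF3C in 2, KIF18B, KIF27, KIF1C and KIF3A in 1 (that without treated replicate 3) and KIF9 in 0. Adding the study's fold threshold (absolute log2FC above 1) left KIF18B, KIF1A and KIF26B.

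**Figure D2:**
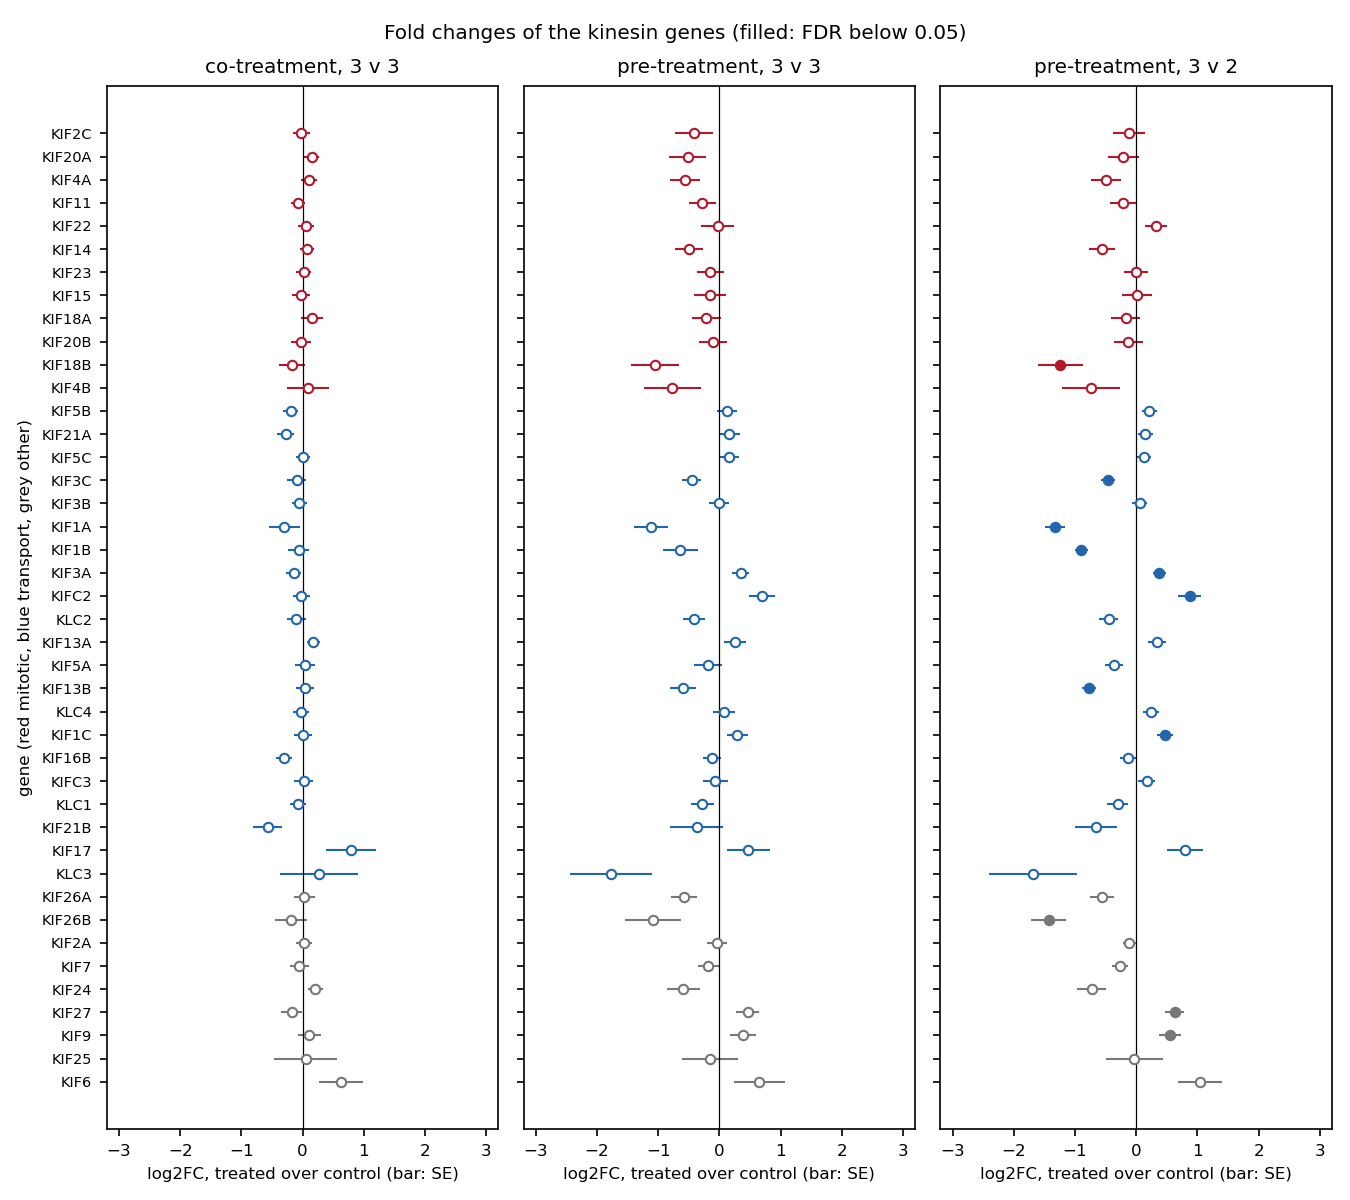
Fold change of each of the 42 kinesin genes (log2FC, treated over control, with its standard error as a bar) in co-treatment with 3 against 3 libraries, pre-treatment with 3 against 3, and pre-treatment without control replicate 3. Filled points mark an FDR below 0.05, found for 0, 0 and 11 genes, so that no point is filled in the left and middle panels.

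The mitotic kinesins differed among the treated libraries of the pre-treatment experiment. Their summed level was 571, 569 and 691 CPM in the control libraries and 418, 378 and 666 CPM in the treated libraries. Treated replicates 1 and 2 lay below every control, whereas treated replicate 3 lay within the range of the controls. Gene by gene, 11 of the 12 mitotic kinesins tested were lower in treated replicates 1 and 2 than in every control and not so in treated replicate 3, the exception being KIF22. The same split was seen in 1 of 21 transport kinesins, in 2 of 9 other kinesins and in 4.68% of all 24743 genes tested. This split was chosen for counting after the values had been seen.

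Mitosis markers outside the symbol rule showed it as well, among them CENPE, itself a kinesin gene under another name. The summed level of 20 of them was 2101, 2160.2 and 2079.99 CPM in the control libraries and 1210.03, 1088 and 2218 CPM in the treated libraries, and 16 of the 20 had the split. Their median log2FC over all 6 libraries was -0.35, near the -0.34 of the mitotic kinesins, and 0 of 20 were called. The part of cell division in the split between the treated libraries was not tested.

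**Figure D3:**
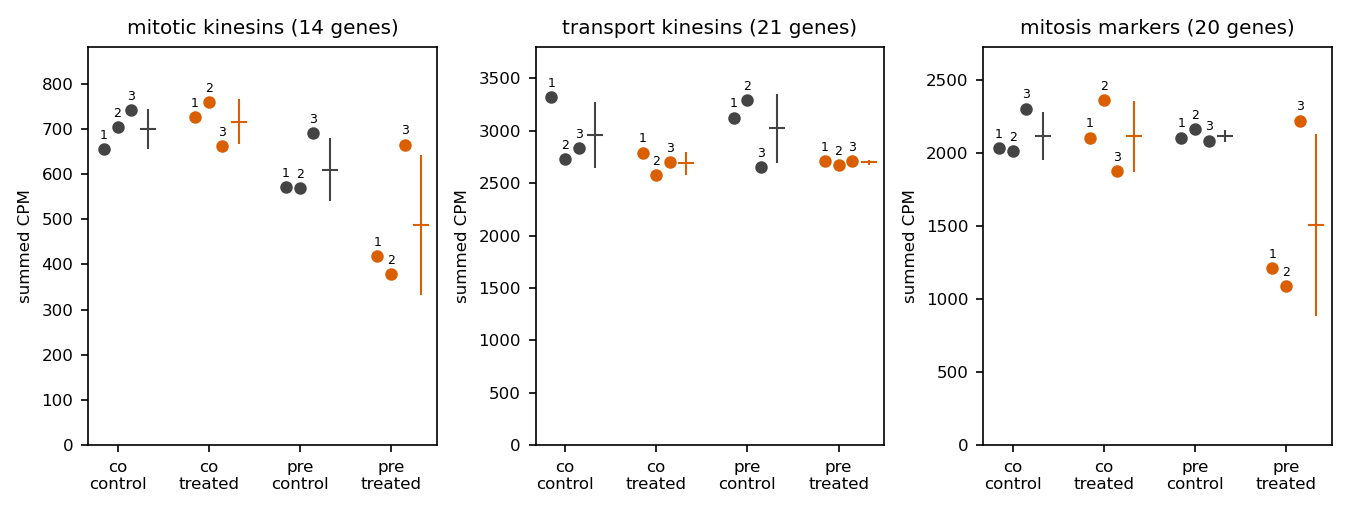
Summed CPM of the 14 mitotic kinesins, the 21 transport kinesins and 20 mitosis markers in each library (points numbered by replicate; dash and bar, mean and SD of 3 libraries). Pre-treatment treated libraries 1 and 2 sit at 418 and 378 CPM for mitotic kinesins while library 3 sits at 666 CPM, and the transport kinesins sit between 2575 and 3320 CPM in all libraries.

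KIF4A is an example of the split, with 67.6, 72.7 and 77.6 CPM in the control libraries and 41.9, 36.1 and 69.6 CPM in the treated libraries. The values gave log2FC = -0.56 ± 0.25 (SE), FDR = 0.453, with all 6 libraries, and log2FC = -0.49 ± 0.25 (SE), FDR = 0.172, without control replicate 3. KIF14, which acts at the midbody late in cell division, had 77.8, 74.5 and 63.5 CPM in the control libraries and 43.2, 40.1 and 69.4 CPM in the treated libraries. Here too treated replicates 1 and 2 stood apart, and the gene was not called with 6 libraries (log2FC = -0.50 ± 0.23 (SE), FDR = 0.471) or with 5 (log2FC = -0.56 ± 0.22 (SE), FDR = 0.0911). KIF20A had 49.3, 51.9 and 83.7 CPM in the control libraries and 35.7, 31.8 and 61.7 CPM in the treated libraries, so that control replicate 3 was the highest library of all (log2FC = -0.52 ± 0.31 (SE), FDR = 0.560, with 6 libraries and log2FC = -0.21 ± 0.26 (SE), FDR = 0.571, without control replicate 3). The highest mitotic kinesin per kilobase, KIF2C, had 46.2, 49.4 and 77.3 CPM in the control libraries and 36.4, 31.02 and 62.7 CPM in the treated libraries, in the same order of libraries (log2FC = -0.41 ± 0.31 (SE), FDR = 0.643, with 6 libraries and log2FC = -0.12 ± 0.26 (SE), FDR = 0.773, without control replicate 3).

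KIF18B, at chr17:43002077-43025141 on hg19, was the mitotic kinesin that was called without control replicate 3. It stood at 24.6, 35.8 and 17.96 CPM in the control libraries and 7.74, 9.89 and 20.1 CPM in the treated libraries. The treated libraries overlapped with control replicate 3 and lay below control replicates 1 and 2. It fell without control replicate 3 (log2FC = -1.24 ± 0.36 (SE), FDR = 0.0375) and was not called with all 6 libraries (log2FC = -1.05 ± 0.39 (SE), FDR = 0.373). KIF22, a chromosome-arm motor and the exception to the split, had 65.4, 67.5 and 116 CPM in the control libraries and 73.8, 67.9 and 103 CPM in the treated libraries. Its control replicate 3 was the highest library, and the log2FC was -0.02 with 6 libraries (FDR = 0.977) and 0.32 without that control (FDR = 0.210).

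With treated replicate 3 alone left out, 0 of 13 mitotic kinesins were called by edgeR's quasi-likelihood test, and 0 of all 26065 genes tested. The 13 include KIFC1, which passed the filter in this fit but whose count was not read as a measure of its expression. An unadjusted p below 0.05 was found for 8 of the 13 (61.5%) and for 8.13% of all genes. Without control replicate 3 and treated replicate 3, 7 of the 12 were called and all 7 were lower, where 17.2% of all genes tested were called lower. The strongest of these were KIF18B (log2FC = -1.78 ± 0.21 (SE), FDR = 0.00172), KIF14 (log2FC = -0.88 ± 0.10 (SE), FDR = 0.00157) and KIF4A (log2FC = -0.86 ± 0.11 (SE), FDR = 0.00248). KIF20A, KIF11, KIF2C and KIF18A were the 4 others. Of the 20 mitosis markers, 12 were called in that fit, all 12 lower. The treated library left out is the one in which these genes were highest, so these counts describe treated replicates 1 and 2 and not the treatment.

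Most mitotic kinesins held in their promoters at least 1 of 2 short elements that genes of the late cell cycle often carry near their start. One is the cell cycle genes homology region (CHR), searched as TTTGAA and, for the other strand, TTCAAA, and the other is the CCAAT box, searched as CCAAT and ATTGG. Other forms of these elements were not searched, so a gene without these letters may still hold such a form. RefSeq promoters, from 250 bases before to 50 after the start on GRCh38.p14, were matched for 36 of the 46 genes. These were all 14 mitotic, 14 of 21 transport and 8 of 11 other kinesins. The called genes KIF13B, KIFC2, KIF26B and KIF27 were among those not matched. The CHR letters were found in 10 of 14 mitotic (71.4%), 1 of 14 transport and 0 of 8 other kinesins, and in 15.2% of all 35116 promoters. A CCAAT box was found in 11 of 14 mitotic (78.6%), 3 of 14 transport and 3 of 8 other kinesins, and in 34.6% of all promoters. Both were found in 9 of 14 mitotic kinesins (64.3%), in 1 transport kinesin (KIF5B) and in 5.90% of all promoters. The mitotic kinesins KIF2B and KIF2C held neither. KIF4B repeats much of the promoter sequence of KIF4A, so these genes are not separate instances. A match of letters is a description of the sequence, and no binding was measured.

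The following stretches, of 140 bases each, show the elements in 6 mitotic kinesins whose levels are given here and in 2 transport kinesins that hold neither. They run 5′ to 3′ on the gene's own strand from 130 bases before the start base to 9 bases after it, with the CHR letters and the CCAAT boxes in capitals. On GRCh38.p14 they lie at chr10:92593000-92593139, plus strand (KIF11), chrX:70289974-70290113, plus strand (KIF4A), chr1:200620742-200620881, minus strand (KIF14), chr11:28108147-28108286, minus strand (KIF18A), chr17:44947764-44947903, minus strand (KIF18B), chr5:138178982-138179121, plus strand (KIF20A), chr2:240821394-240821533, minus strand (KIF1A) and chr5:132737537-132737676, minus strand (KIF3A).
KIF11: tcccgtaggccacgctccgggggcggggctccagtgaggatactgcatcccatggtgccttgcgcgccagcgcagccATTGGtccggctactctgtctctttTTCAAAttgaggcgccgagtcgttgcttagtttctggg
KIF4A: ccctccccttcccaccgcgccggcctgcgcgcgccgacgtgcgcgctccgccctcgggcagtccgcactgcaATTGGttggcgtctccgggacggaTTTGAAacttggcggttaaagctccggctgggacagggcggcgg
KIF14: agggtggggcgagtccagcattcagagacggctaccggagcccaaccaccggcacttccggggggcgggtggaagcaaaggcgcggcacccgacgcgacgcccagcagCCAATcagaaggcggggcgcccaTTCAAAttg
KIF18A: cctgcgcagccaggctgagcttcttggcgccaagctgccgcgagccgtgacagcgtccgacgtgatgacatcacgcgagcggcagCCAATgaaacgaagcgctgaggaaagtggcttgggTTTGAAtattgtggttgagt
KIF18B: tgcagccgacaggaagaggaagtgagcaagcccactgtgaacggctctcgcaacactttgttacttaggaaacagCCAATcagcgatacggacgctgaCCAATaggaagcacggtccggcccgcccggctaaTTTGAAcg
KIF20A: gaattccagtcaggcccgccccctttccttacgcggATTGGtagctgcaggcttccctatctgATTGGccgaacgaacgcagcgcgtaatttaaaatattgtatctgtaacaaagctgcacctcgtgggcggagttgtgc
KIF1A: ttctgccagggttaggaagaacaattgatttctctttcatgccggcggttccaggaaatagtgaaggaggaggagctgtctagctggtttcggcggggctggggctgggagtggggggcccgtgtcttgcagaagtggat
KIF3A: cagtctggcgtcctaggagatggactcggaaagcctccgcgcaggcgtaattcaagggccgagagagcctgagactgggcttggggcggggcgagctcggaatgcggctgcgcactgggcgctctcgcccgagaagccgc

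In KIF11, the bipolar motor that pushes spindle poles apart, the CCAAT box begins 53 bases and the CHR 28 bases before the start. The order is the same in KIF4A (58 and 34 bases), in KIF18A (45 and 10 bases) and in KIF14, where the box begins 22 bases before and the CHR 1 base after the start. KIF18B holds 2 boxes ahead of a CHR that begins 2 bases after the start. KIF20A holds 2 boxes and no CHR letters, and KIF1A and KIF3A hold none of them. KIF11 itself stood at 83.1, 80.8 and 88.04 CPM in the control libraries and 59.9, 54.2 and 93.5 CPM in the treated libraries in the pre-treatment experiment, with the split between treated replicates described above.

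**Figure D4:**
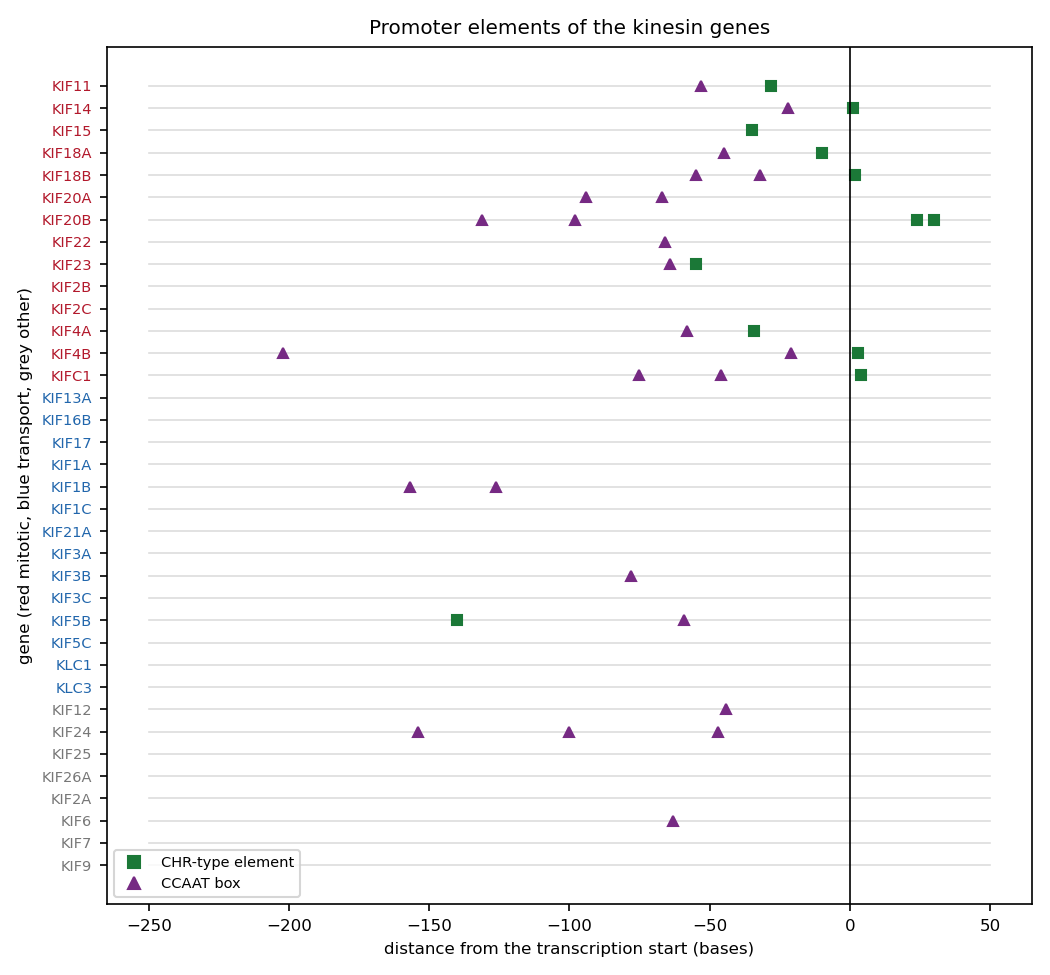
Position of the CHR-type element (squares) and the CCAAT box (triangles) in the promoters of the 36 matched kinesin genes, as distance in bases from the transcription start. The elements lie near the start in most mitotic kinesins (red), CCAAT boxes of KIF4B and KIF20B lying farther out, and 1 of 14 transport kinesins (blue) holds the CHR letters.

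Among transport kinesins, those of the kinesin-3 family, which carry synaptic vesicle precursors, mitochondria and dense-core vesicles down axons, held the 3 called genes that fell most. KIF1A, the main motor of synaptic vesicle precursors (chr2:241653178-241763710 on hg19), stood at 517, 702 and 337 CPM in the control libraries and 209.8, 257 and 250.1 CPM in the treated libraries. All treated libraries lay below all controls, with control replicate 3 nearest to them. It was not called with 6 libraries (log2FC = -1.12 ± 0.27 (SE), FDR = 0.320) and fell without control replicate 3 (log2FC = -1.33 ± 0.16 (SE), FDR = 0.00159). KIF1B, which carries mitochondria and vesicles (chr1:10270628-10441661 on hg19), had 412, 425 and 196 CPM in the control libraries and 214, 212 and 238 CPM in the treated libraries. Control replicate 3 lay below every treated library, so that the groups overlapped with 6 libraries (log2FC = -0.64 ± 0.29 (SE), FDR = 0.459). Without it the gene fell (log2FC = -0.90 ± 0.11 (SE), FDR = 0.00188).

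KIF13B, a motor that carries membrane receptors and helps set up axons, had 72.7, 79.4 and 46.8 CPM in the control libraries and 41.1, 46.2 and 44.4 CPM in the treated libraries. Its treated libraries were below every control, again with control replicate 3 next to them. It was not called with 6 libraries (log2FC = -0.60 ± 0.21 (SE), FDR = 0.362) and fell without control replicate 3 (log2FC = -0.77 ± 0.11 (SE), FDR = 0.00354). The kinesin-3 gene KIF1C, a motor of integrin-bearing and dense-core vesicles, had 24.4, 21.9 and 31.01 CPM in the control libraries and 31.9, 32.00 and 31.03 CPM in the treated libraries. Control replicate 3 was level with the lowest treated library and the other controls lay below. KIF1C was not called with 6 libraries (log2FC = 0.30 ± 0.18 (SE), FDR = 0.565) and rose without control replicate 3 (log2FC = 0.47 ± 0.13 (SE), FDR = 0.0293). KIF13A, which carries recycling endosomes, and KIF16B were not called in either form of the comparison.

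In 8 of the 11 kinesin genes called without it, control replicate 3 was nearer to the mean of the treated libraries than to the mean of the other controls, KIF3A, KIF3C and KIFC2 being the 3 others. The same was true of 15 of the 31 genes not called. Leaving that library out favours such genes. The shares of reads outside genes and of small structured RNAs given above moved in the same way, with control replicate 3 on the side of the treated libraries, and their part in these differences was not tested. The dynein heavy chain gene DYNC1H1, the motor for transport toward the cell centre, showed the same order with 1794, 1777 and 774 CPM in the control libraries and 904, 848 and 846 CPM in the treated libraries. In the co-treatment experiment KIF1A had 584, 296 and 271 CPM in the control libraries and 371, 265 and 302 CPM in the treated libraries and KIF1B had 313, 209 and 200.5 CPM in the control libraries and 227, 228 and 235 CPM in the treated libraries. Control replicate 1 was the highest library for both, and neither was called (log2FC = -0.30 ± 0.25 (SE), FDR = 0.849 and log2FC = -0.07 ± 0.17 (SE), FDR = 0.969). Small structured RNAs took 5.31% of the reads of that control, 9.87% and 12.9% in the other co-treatment controls and 5.04% to 13.03% in the treated libraries.

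**Figure D5:**
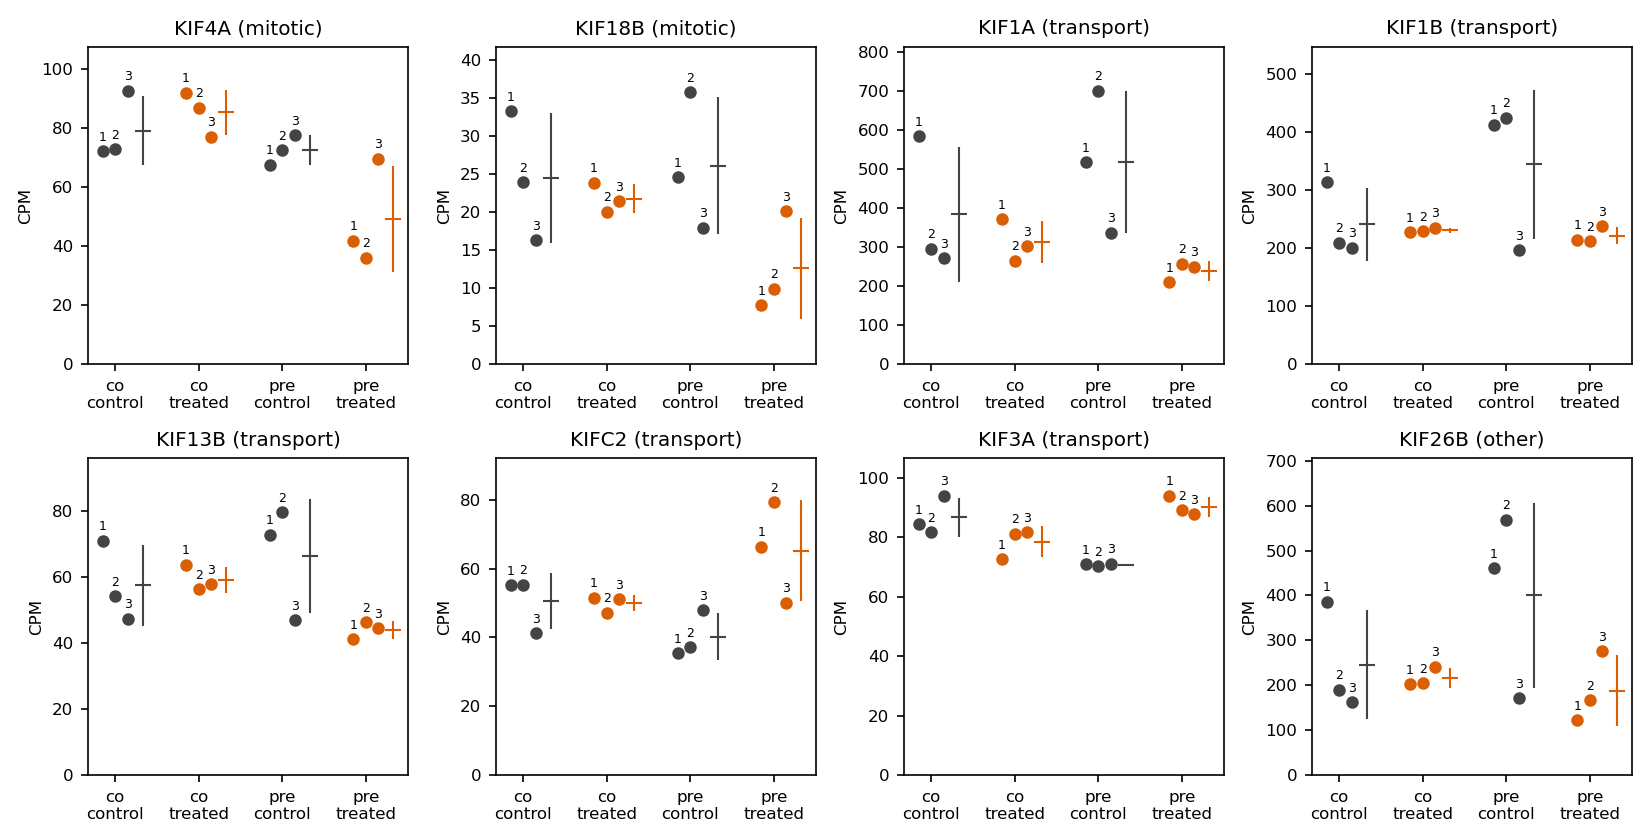
CPM of 8 kinesin genes in each library (points numbered by replicate; dash and bar, mean and SD of 3 libraries). In pre-treatment, control library 3 lies with the treated libraries for KIF1B, KIF13B and KIF26B but with the other controls for KIF3A, whose 3 controls lie at 70.2 to 71.0 CPM and whose treated libraries lie at 87.7 to 93.9 CPM.

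Kinesin-2 motors, most of which pair different chains and work in axons and cilia, held 2 called genes of opposite direction. KIF3A, one chain of the heterotrimeric motor, had 70.9, 70.2 and 71.00 CPM in the control libraries and 93.9, 88.96 and 87.7 CPM in the treated libraries. The groups did not overlap, and control replicate 3 lay with the other controls. KIF3A was not called with 6 libraries (log2FC = 0.35 ± 0.14 (SE), FDR = 0.408) and rose without control replicate 3 (log2FC = 0.38 ± 0.10 (SE), FDR = 0.0314). KIF3C, an alternative partner of KIF3A found mainly in neurons, had 207, 225 and 201 CPM in the control libraries and 158, 165 and 139 CPM in the treated libraries. Its groups did not overlap either, and control replicate 3 was the lowest control by a small margin. KIF3C was not called with 6 libraries (log2FC = -0.45 ± 0.16 (SE), FDR = 0.355) and fell without control replicate 3 (log2FC = -0.46 ± 0.12 (SE), FDR = 0.0240). The usual partner, KIF3B, gave log2FC = -0.01 ± 0.16 (SE), FDR = 0.985, with 6 libraries and log2FC = 0.06 ± 0.12 (SE), FDR = 0.763, without control replicate 3, and KIFAP3, the cargo-binding subunit, stood at 103, 88.98 and 128 CPM in the control libraries and 125, 127 and 109 CPM in the treated libraries. KIF17 had 0.947, 0.734 and 1.42 CPM in the control libraries and 1.66, 1.31 and 1.37 CPM in the treated libraries (log2FC = 0.48 ± 0.36 (SE), FDR = 0.643, with 6 libraries and log2FC = 0.80 ± 0.30 (SE), FDR = 0.0808, without control replicate 3).

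The minus-end-directed motor KIFC2, which is known from neurons, had the largest positive change among the called members. It stood at 35.4, 37.1 and 47.96 CPM in the control libraries and 66.3, 79.4 and 50.04 CPM in the treated libraries. All treated libraries were above all controls, replicate 3 of the treated group being next to control replicate 3. KIFC2 was not called with 6 libraries (log2FC = 0.70 ± 0.22 (SE), FDR = 0.320) and rose without control replicate 3 (log2FC = 0.87 ± 0.19 (SE), FDR = 0.0128). It overlaps FOXH1, a gene on the other strand, and the strand setting of the counting is not stated in the sources used here. KIFC3, its relative at cell junctions, gave log2FC = -0.07 ± 0.20 (SE), FDR = 0.911, with 6 libraries and log2FC = 0.17 ± 0.14 (SE), FDR = 0.372, without control replicate 3.

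Conventional kinesin (kinesin-1) moves mitochondria and many vesicles. None of its 3 heavy chains and 4 light chains was called in any comparison. KIF5B, its ubiquitous heavy chain, had 382, 333 and 410.04 CPM in the control libraries and 424, 395 and 408 CPM in the treated libraries (log2FC = 0.12 ± 0.17 (SE), FDR = 0.798, with 6 libraries and log2FC = 0.22 ± 0.12 (SE), FDR = 0.208, without control replicate 3). In the co-treatment experiment it had 399, 375 and 428 CPM in the control libraries and 349.8, 358 and 344 CPM in the treated libraries, the treated libraries being below each control (log2FC = -0.19 ± 0.12 (SE), FDR = 0.768). KIF5B made up 46.6% to 56.7% of the summed CPM of the 3 heavy chains in the 12 libraries, KIF5C, a neuronal heavy chain, 34.3% to 41.5%, and KIF5A, the other neuronal heavy chain, 7.60% to 15.3%. These shares were not scaled by gene length. KLC3 had 0.0297 to 0.429 CPM over both experiments, with log2FC = -1.77 ± 0.67 (SE), FDR = 0.382, with 6 libraries and log2FC = -1.69 ± 0.72 (SE), FDR = 0.114, without control replicate 3, under pre-treatment, on 150 reads over the 12 libraries.

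KIF21A, the second most abundant transport kinesin per kilobase, had 588, 576 and 536 CPM in the control libraries and 624, 587 and 691 CPM in the treated libraries in the pre-treatment experiment (log2FC = 0.16 ± 0.17 (SE), FDR = 0.744, with 6 libraries and log2FC = 0.15 ± 0.12 (SE), FDR = 0.406, without control replicate 3). The groups overlapped with and without control replicate 3. The sign of both was opposite to that under co-treatment, and the difference between the 2 responses was 0.37 on the log2 scale (FDR = 0.191, 11 libraries). KIF21B, at 4.45, 8.59 and 2.79 CPM in the control libraries and 3.11, 3.48 and 5.64 CPM in the treated libraries, varied as much within the groups as between them (log2FC = -0.37 ± 0.43 (SE), FDR = 0.761, with 6 libraries and log2FC = -0.65 ± 0.34 (SE), FDR = 0.188, without control replicate 3).

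Of the 9 other kinesins tested, 3 were called without control replicate 3. KIF26B, whose gene spans 554 kb (chr1:245318287-245872734 on hg19), had 461, 569 and 171 CPM in the control libraries and 122, 167 and 276 CPM in the treated libraries. Control replicate 3 lay within the range of the treated libraries and far from the other 2 controls. It was not called with 6 libraries (log2FC = -1.09 ± 0.45 (SE), FDR = 0.428) and fell without control replicate 3 (log2FC = -1.43 ± 0.29 (SE), FDR = 0.0101). KIF27 had 10.6, 9.60 and 13.2 CPM in the control libraries and 15.3, 15.7 and 15.2 CPM in the treated libraries, the treated libraries being above every control (log2FC = 0.47 ± 0.19 (SE), FDR = 0.410 with 6 libraries), and rose without control replicate 3 (log2FC = 0.63 ± 0.15 (SE), FDR = 0.0191). KIF9, a kinesin of motile cilia, had 7.51, 8.33 and 10.4 CPM in the control libraries and 10.6, 10.8 and 12.96 CPM in the treated libraries, also with no overlap (log2FC = 0.39 ± 0.21 (SE), FDR = 0.524 with 6 libraries). It rose without control replicate 3, close to the threshold (log2FC = 0.56 ± 0.18 (SE), FDR = 0.0490), and it shares its position with the antisense gene KIF9-AS1.

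KIF26A, KIF24 and KIF6 were next in order but were not called. KIF26A had 119.9, 189.8 and 152 CPM in the control libraries and 85.5, 117 and 107 CPM in the treated libraries, with the treated libraries below each control (log2FC = -0.58 ± 0.22 (SE), FDR = 0.379, with 6 libraries and log2FC = -0.56 ± 0.20 (SE), FDR = 0.0714, without control replicate 3). KIF24 had 28.1, 33.2 and 21.2 CPM in the control libraries and 14.5, 15.2 and 25.1 CPM in the treated libraries, which is the split of the mitotic kinesins, treated replicate 3 lying within the range of the controls (log2FC = -0.59 ± 0.27 (SE), FDR = 0.459, with 6 libraries and log2FC = -0.72 ± 0.24 (SE), FDR = 0.0543, without control replicate 3). Its promoter holds 3 CCAAT boxes and no CHR letters. KIF6 had 0.661, 0.432 and 1.03 CPM in the control libraries and 1.35, 0.906 and 1.10 CPM in the treated libraries (log2FC = 0.65 ± 0.42 (SE), FDR = 0.588, with 6 libraries and log2FC = 1.05 ± 0.36 (SE), FDR = 0.0632, without control replicate 3). KIF2A, which shapes axon branches as well as spindles, gave log2FC = -0.04 ± 0.16 (SE), FDR = 0.940, with 6 libraries and log2FC = -0.11 ± 0.11 (SE), FDR = 0.458, without control replicate 3.

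Mitotic and transport kinesins were compared directly as the mean log2 CPM of 12 mitotic kinesins minus that of 21 transport kinesins in each library. Under co-treatment this difference was -0.57, -0.15, -0.26 in the control and -0.33, -0.08, -0.37 in the treated libraries, with means of -0.33 ± 0.21 and -0.26 ± 0.16 (SD, n = 3 each). The change of 0.06 was smaller than the SD within the groups. Under pre-treatment it was -0.64, -0.57, -0.32 in the control and -1.06, -1.08, -0.23 in the treated libraries, with means of -0.51 ± 0.17 and -0.79 ± 0.48 (SD, n = 3 each). Treated replicates 1 and 2 were the 2 lowest libraries and treated replicate 3 the highest. The change of -0.28 with 6 libraries, or -0.19 without control replicate 3, was again smaller than the pooled SD within the groups, of 0.36 or 0.40. This rested on treated replicate 3: without it the change was -0.56 (pooled SD 0.14) with 3 controls and -0.47 (pooled SD 0.04) with 2, both larger than the SD. Leaving out the highest library enlarges the change and lowers the SD by itself. These values therefore describe treated replicates 1 and 2 and not the treatment.

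The mean log2 CPM of the mitotic kinesins changed by -0.42 (pooled SD 0.34) with 6 libraries, and that of the 21 transport kinesins by -0.14 (pooled SD 0.05). The latter leaned on KLC3, which has few reads. Over the 20 others the change was -0.07 (pooled SD 0.06), or -0.08 (pooled SD 0.04) without control replicate 3. Over the treated libraries, the mean log2 CPM of mitotic kinesins had an SD of 0.46, against 0.04 for transport kinesins, and the SDs over the controls were 0.12 and 0.06. The median log2FC with 6 libraries was -0.34 over mitotic kinesins, with all 12 below 0, and -0.07 over transport kinesins, with 9 of 21 above 0. Over all genes tested it was -0.01. Without control replicate 3 the medians were -0.19 with 2 of 12 above 0 and 0.06 with 11 of 21 above 0, and 0.01 over all genes.

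Whether a kinesin responded differently to H2O2 before and during ATRA was tested as an interaction. Over all 12 libraries no kinesin gene was called, against a background of 0.0287% (7 of 24407 genes tested). At an unadjusted p below 0.05 there were 8 of the 42 kinesin genes (19.0%) and 8.94% of all genes. Over the 11 libraries without pre-treatment control replicate 3, 4 of the 42 were called (9.52%), against a background of 8.02% (2058 of 25668 genes tested). They were KIF13B, KIF1B, KIF24 and KIFC2. KIF24 was not called in either experiment alone, its log2FC being 0.21 under co-treatment and -0.72 under pre-treatment without control replicate 3 (log2FC = -0.99 ± 0.27 (SE), FDR = 0.0393, for the difference).

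The partners of the transport kinesins and the opposite motor were given for comparison. Of 20 cargo adaptors and regulators, 0 were called under co-treatment, 0 under pre-treatment with 6 libraries and 6 without control replicate 3 (30.0%). The largest change among these was in CLSTN1, which links vesicles to the kinesin light chains, with 244, 271 and 171 CPM in the control libraries and 113, 121 and 120.2 CPM in the treated libraries (log2FC = -0.95 ± 0.20 (SE), FDR = 0.320, with 6 libraries and log2FC = -1.10 ± 0.11 (SE), FDR = 0.000996, without control replicate 3), and TRAK1, which links mitochondria to kinesin-1, gave log2FC = -0.55 ± 0.18 (SE), FDR = 0.324, with 6 libraries and log2FC = -0.64 ± 0.11 (SE), FDR = 0.00594, without control replicate 3. Of 21 dynein and dynactin genes, 0, 0 and 7 (33.3%) were called in the same 3 comparisons, among them DYNC1H1 (log2FC = -0.74 ± 0.32 (SE), FDR = 0.442, with 6 libraries and log2FC = -1.02 ± 0.12 (SE), FDR = 0.00147, without control replicate 3). Both shares lie near the background of 26.1% of all genes. Of 20 mitosis markers 0, 0 and 2 were called, against the 12 given above without both control replicate 3 and treated replicate 3. The 2 were the proliferation antigen gene MKI67 (log2FC = -1.69 ± 0.62 (SE), FDR = 0.366, with 6 libraries and log2FC = -2.10 ± 0.43 (SE), FDR = 0.0108, without control replicate 3) and the mitotic kinase gene PLK1 (log2FC = -1.02 ± 0.27 (SE), FDR = 0.320, with 6 libraries and log2FC = -1.07 ± 0.26 (SE), FDR = 0.0207, without control replicate 3). MKI67 stood at 428, 501 and 108 CPM in the control libraries and 64.96, 63.4 and 192 CPM in the treated libraries, so that its control replicate 3 lay below treated replicate 3.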

How the data were processed

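The 12 libraries of SH-SY5Y cells were stranded and made after ribosomal RNA had been removed. According to the submitters' processing notes and the study's methods, the authors checked reads with FastQC 0.11.8, trimmed them with cutadapt 2.10, mapped them to hg19 with HISAT2 2.1.0 and counted them per gene with HTSeq 0.7.2. The deposited counts of each library are whole numbers, not normalized or filtered; the strand setting of the counting is not given in the sources used here. The entries for reads not counted on a gene (40.0% to 59.9% of all entries' reads) were left out of library sizes. The authors' tables of their own fold changes and p-values were not used.

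The kinesin genes were tested within fits of all genes by edgeR 4.0.16 under R 4.3.3 (TMM factors, quasi-likelihood test, Benjamini-Hochberg adjustment over all genes tested); limma 3.58.1 and DESeq2 1.42.0 served as alternatives. Genes were tested if their CPM was no lower than 5 counts would give in the shallowest library, in a number of libraries equal to the smaller group. Log2 CPM used a prior count of 2. Scripts were tested on simulated data.

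The kinesin genes, their classes, the lists and the tests were chosen with earlier results of these data known. Genes were named by a rule: the 4 smallest p-values per class in each of 3 comparisons, every gene called, and the 2 highest per kilobase in each class; others named were chosen after their values were seen. Exon lengths and hg19 positions came from GENCODE v44 lifted to that build, in which all 46 genes matched. Nothing in the labels says that libraries of one group came from separate cultures, so p-values measure the spread between these libraries. The labels do not say either whether the replicate numbers pair cultures. Residuals of same-numbered libraries correlated by -0.28 to 0.09, which cannot settle this with so few libraries. Libraries of the same group differed beyond counting error in all 12 such pairs; libraries of different groups were not compared in this way. The alternatives were other tests, scalings, filters and thresholds, 1 fit over both experiments, a replicate block and each library left out in turn.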

Additional observations from a re-analysis of the deposited data

Results flagged for a closer look

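The responses of 4 kinesin genes to H2O2 before and during ATRA differed by the interaction test of edgeR over 11 libraries, without pre-treatment control replicate 3. The difference, as the response before ATRA minus the response during ATRA on the log2 scale, was -0.87 for KIF13B (FDR = 0.0243), -0.89 for KIF1B (FDR = 0.0289), -0.99 for KIF24 (FDR = 0.0393) and 0.84 for KIFC2 (FDR = 0.0478). With all 12 libraries the differences were -0.67, -0.61, -0.83 and 0.70, and none of the 4 was called. The 4 genes are 9.52% of the kinesin genes tested, near the 8.02% of all genes called over 11 libraries. The result also rests on leaving out that control. In groups of 3 libraries, no test for a single outlying library was made.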

How the results depend on the processing

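No kinesin gene was called under co-treatment with any alternative, including each library left out. With all 6 pre-treatment libraries the count of 0 became 1 with edgeR's exact test, DESeq2 or no filter, and leaving out each library in turn gave 0 to 11, the 11 without control replicate 3. Without control replicate 3, the count of 11 (26.2%, all genes 26.1%) became 3 with the study's fold threshold (7.14%, all genes 11.2%). It became 26 with a replicate block (61.9%, all genes 40.8%), a fit that rests on a pairing the labels do not state. Leaving out treated replicate 3 as well gave 19 (45.2%, all genes 33.1%). Without treated replicate 1 or treated replicate 2 the count was 5 (11.9%, all genes 12.5% and 15.5%). Leaving out a further control would leave 1 control library, so no count is given here. The difference between the responses gave 0 over 12 libraries and 4 without control replicate 3. Over 11 libraries the count of 4 became 0 with the fold threshold, 11 with no filter (24.4%, all genes 9.09%) and 1 with the replicate block (2.38%, all genes 3.24%), and leaving out each library gave 0 to 11: 0 without pre-treatment control replicate 2, co-treatment control replicate 2, co-treatment treated replicate 3 or pre-treatment treated replicate 1, 1 to 3 without most others, 9 without pre-treatment treated replicate 3 (21.4%, all genes 9.90%) and 11 without co-treatment control replicate 1 (26.2%, all genes 17.6%). The cause was not tested. The mitotic minus transport level moved by less than 1 SD of the full comparison under every alternative, including the omission of KLC3, which was added after the data were seen; its dependence on treated replicate 3 is given above. Of the fold changes of named genes, 3 changed sign, all under co-treatment and none of them called: KIF18A to -0.10 without treated replicate 2, and KIF18B to 0.11 and KIF26B to 0.29 without control replicate 1 (ranges with each library left out, -0.10 to 0.30, -0.40 to 0.11 and -0.42 to 0.29). KIF1A, KIF1B and KIF13B were called without pre-treatment control replicate 3 under every alternative with no fold threshold, with a highest FDR of 0.0156, 0.0199 and 0.0360, whereas KIF9 was called in 4 of 12 other settings and in none of 5 that left out a library.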
